A study of Mus musculus with 3 samples.

Results

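KLF4 gene-end peaks without HDAC3 are sites in mouse epidermis where the transcription factor KLF4 was found at the end of a protein-coding gene and no peak of the histone deacetylase HDAC3 was called nearby. A KLF4 peak was taken when its centre lay within 1 kb of either annotated end of a protein-coding gene and no HDAC3 peak centre lay within 1 kb of its own centre. Of 47155 KLF4 peaks, 2993 met this rule. The peaks were thus chosen by measured values, namely the positions of the called KLF4 and HDAC3 peaks. They make up 58.9% of the 5085 KLF4 peaks at gene ends; the other 2092 had an HDAC3 peak. Away from gene ends, 61.9% of 42055 KLF4 peaks had no HDAC3 peak either. In gene terms, 3102 of 21887 protein-coding genes (14.2%; 13.7 to 14.6) had such a peak at an end, while 9.79% had a KLF4 peak with HDAC3 and 23.1% had a KLF4 peak of any kind. These shares follow from the rule and were not tested.

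The peaks came from chromatin immunoprecipitation with sequencing on the epidermis of the back of wild-type mouse embryos, collected at E18.5 with no treatment named in the labels. There was 1 library for KLF4 (antibody R&D AF3158, 61432711 tags), 1 for HDAC3 (antibody Abcam ab7030, 56787485 tags) and 1 for input chromatin without antibody. Because each antibody has 1 library, the spread between replicates is unknown and every value describes these libraries alone. Ranges in parentheses after a share are exact 95% binomial limits (Clopper-Pearson). They reflect counting error in peaks, genes or windows and no more. Neighbouring peaks, and genes that share a peak, are not independent, and the spread between libraries is not covered. The lack of an HDAC3 peak means that none passed the authors' threshold of 16 tags and 4-fold enrichment, not that HDAC3 was absent. The tissue holds all epidermal layers, so occupancy in few cells and weak occupancy in many cannot be told apart.

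KLF4 is a zinc finger factor of the Krüppel-like family that binds GC-rich and CACCC-type DNA, and it is made in the differentiating layers of the epidermis, where it is required for the barrier against water loss. It can activate or repress transcription depending on its partners. HDAC3 removes acetyl groups from histones as the catalytic subunit of the NCoR and SMRT corepressor complexes, and its loss from the epidermis also impairs the barrier.

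Promoters of 9 of the genes are shown because their KLF4 peak is centred in the promoter window and they span the roles described here. They are Zfand2a and Arhgap28 from the highest peaks, Tjp3 from the tight junction, Pnpla1 and Cers5 from barrier lipid synthesis, Sprr1b from the cornified envelope, Cdkn1a and Plk3 from growth arrest and stress, and Eif2b5 from translation. Each run is the 250 bases before the gene start, 5′ to 3′ along the gene, from RefSeq for GRCm38.p6. Capitals mark CACCC, GGGTGTGG and GGGCGTGG on either strand, so that GGGTG is CACCC read on the other strand and CCACGCCC is GGGCGTGG read on the other strand.
Zfand2a (chr5:139484492-139484741, minus strand): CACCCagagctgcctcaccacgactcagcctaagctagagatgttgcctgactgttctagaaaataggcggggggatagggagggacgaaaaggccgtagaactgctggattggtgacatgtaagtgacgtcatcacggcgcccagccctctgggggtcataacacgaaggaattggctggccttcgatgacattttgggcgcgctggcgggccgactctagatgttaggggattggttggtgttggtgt
Tjp3 (chr10:81291582-81291831, minus strand): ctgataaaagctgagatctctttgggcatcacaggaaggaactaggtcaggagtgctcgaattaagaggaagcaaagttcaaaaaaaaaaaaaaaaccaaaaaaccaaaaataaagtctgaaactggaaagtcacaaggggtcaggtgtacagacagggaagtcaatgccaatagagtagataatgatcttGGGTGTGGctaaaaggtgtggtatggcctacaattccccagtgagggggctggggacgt
Arhgap28 (chr17:68004109-68004358, minus strand): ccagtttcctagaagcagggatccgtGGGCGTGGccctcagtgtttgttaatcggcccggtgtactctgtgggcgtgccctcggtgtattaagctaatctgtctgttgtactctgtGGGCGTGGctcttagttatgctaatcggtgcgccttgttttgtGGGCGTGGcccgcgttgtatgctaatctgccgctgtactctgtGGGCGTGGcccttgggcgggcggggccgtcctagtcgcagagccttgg
Pnpla1 (chr17:28858161-28858410, plus strand): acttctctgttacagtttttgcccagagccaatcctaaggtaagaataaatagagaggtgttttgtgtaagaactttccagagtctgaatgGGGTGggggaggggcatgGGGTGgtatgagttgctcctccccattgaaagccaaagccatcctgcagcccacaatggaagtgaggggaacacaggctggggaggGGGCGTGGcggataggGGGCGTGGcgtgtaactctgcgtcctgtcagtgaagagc
Cers5 (chr15:99772516-99772765, minus strand): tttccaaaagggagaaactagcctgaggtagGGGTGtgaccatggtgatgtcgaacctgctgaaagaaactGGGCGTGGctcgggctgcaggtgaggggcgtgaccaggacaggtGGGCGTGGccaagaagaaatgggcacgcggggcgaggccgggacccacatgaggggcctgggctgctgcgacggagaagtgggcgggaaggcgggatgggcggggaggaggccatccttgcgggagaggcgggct
Sprr1b (chr3:92438780-92439029, minus strand): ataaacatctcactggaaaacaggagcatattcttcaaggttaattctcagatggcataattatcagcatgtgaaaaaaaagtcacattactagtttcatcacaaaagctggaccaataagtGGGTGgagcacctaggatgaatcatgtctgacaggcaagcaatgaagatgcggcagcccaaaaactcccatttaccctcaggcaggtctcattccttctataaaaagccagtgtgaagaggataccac
Cdkn1a (chr17:29090729-29090978, plus strand): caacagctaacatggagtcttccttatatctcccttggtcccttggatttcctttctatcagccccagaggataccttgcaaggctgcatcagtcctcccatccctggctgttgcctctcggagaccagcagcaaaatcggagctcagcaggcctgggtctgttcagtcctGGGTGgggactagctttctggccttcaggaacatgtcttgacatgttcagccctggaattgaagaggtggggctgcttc
Plk3 (chr4:117133964-117134213, minus strand): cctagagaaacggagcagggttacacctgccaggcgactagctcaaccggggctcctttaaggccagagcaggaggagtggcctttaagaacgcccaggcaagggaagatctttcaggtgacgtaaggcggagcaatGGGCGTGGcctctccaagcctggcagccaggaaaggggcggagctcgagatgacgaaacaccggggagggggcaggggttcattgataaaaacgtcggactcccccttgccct
Eif2b5 (chr16:20498567-20498816, plus strand): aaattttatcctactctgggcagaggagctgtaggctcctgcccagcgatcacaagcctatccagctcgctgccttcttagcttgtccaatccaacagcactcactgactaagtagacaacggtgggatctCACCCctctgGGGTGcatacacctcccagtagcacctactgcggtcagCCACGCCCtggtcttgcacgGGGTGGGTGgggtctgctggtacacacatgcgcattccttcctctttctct

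Starts here are those of the promoter table and can differ from the gene ends of the gene table, from which all other distances are taken: the Arhgap28 centre is at -158 bp from the former start and 69 bp outside the latter. Arhgap28 held GGGCGTGG 4 times, the nearest 28 bp from the peak centre. Pnpla1 and Cers5 held it 2 times each, 74 and 65 bp from the centre at the nearest. Eif2b5 held it once, 12 bp from the centre, beside 4 CACCC matches, and Plk3 held it once, 21 bp from the centre. Tjp3 held 1 GGGTGTGG, 43 bp from the centre. Zfand2a, Sprr1b and Cdkn1a held a CACCC and neither longer match, although the Zfand2a peak was among the highest. The only CACCC of Zfand2a opens its run and lies outside the called peak, which spans 139484404 to 139484588. Promoters of both kinds of base composition occurred: Arhgap28 had 18 CpG pairs in its 250 bases, against 2 for Tjp3 and for Cdkn1a and 1 for Sprr1b.

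The peak with the highest score of the class was at Rangap1, which encodes the protein that activates GTP hydrolysis by Ran at the nuclear pore. It lay on chromosome 15, 81730089 to 81730273, 617 bp inside the gene start, and held 228.5 KLF4 tags (scaled by the authors' caller to the input library) against 6 input tags. Its score, a value by which the authors' caller ranks peaks and which is not the plain tag number, was 446. Zfand2a, a stress-induced proteasome cofactor, had a lower score of 437 but slightly more tags, 229.8 scaled KLF4 tags against 12 input tags, at chromosome 5, 139484404 to 139484588, with its centre 5 bp outside the gene start. Both were far above input, and the nearest HDAC3 peak centres were 6329 bp away for Rangap1 and 9120 bp away for Zfand2a. Adtrp, a membrane protein that regulates an inhibitor of coagulation, had 227.1 scaled KLF4 tags against 5 input tags, and its HDAC3 neighbour was only 1155 bp away. Kif1b, a kinesin motor, had 210.8 against 8, and Plscr3, a mitochondrial phospholipid scramblase, had 203.6 against 14.

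Several genes of keratinocyte structure followed among the 25 highest by score. Ly6d, a surface protein of stratified epithelia, had 194.1 scaled KLF4 tags against 8 input tags, with the peak 995 bp outside the gene and 28355 bp from HDAC3. Krt80, a keratin of differentiating epithelia, had 168.7 against 5 at 62 bp outside the gene. Fam83h, a protein that organises keratin filaments, had 151.5 against 13. Dmkn, the secreted dermokine of the upper epidermis, had 136.6 against 4. Tjp3, the tight junction scaffold ZO-3, had peaks at both ends: 145.2 against 5 at the start and 77.8 against 3 at the other end, where the score was 161. Fam83g, a partner of casein kinase 1, had 140.2 scaled KLF4 tags against 1 input tag, the highest fold over input of the class at 140-fold, and this ratio rests on that 1 input tag. The next by fold over input were Ell3 (86.9-fold), 1110038F14Rik (79.2-fold), Osbpl2 (72.8-fold) and Kat2a (69.7-fold), each on 1 input tag or on none, which the list writes as 0.5. Others of the 25 were the ARF regulators Acap1 (score 399) and Cyth1 (304), the adaptor Afap1l2 (398), the RNA-binding Lsm4 (385), the glycogen synthase Gys1 (340), Ddah2 (328), Mpv17l (306), the innate immune adaptor Card9 (290), the kinase Camkk2 (290), Pafah2 (287), Bglap3 (285), the GTPase-activating protein Arhgap28 (284), 4930438A08Rik (366) and Gm38457 (345).

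**Figure D1:**
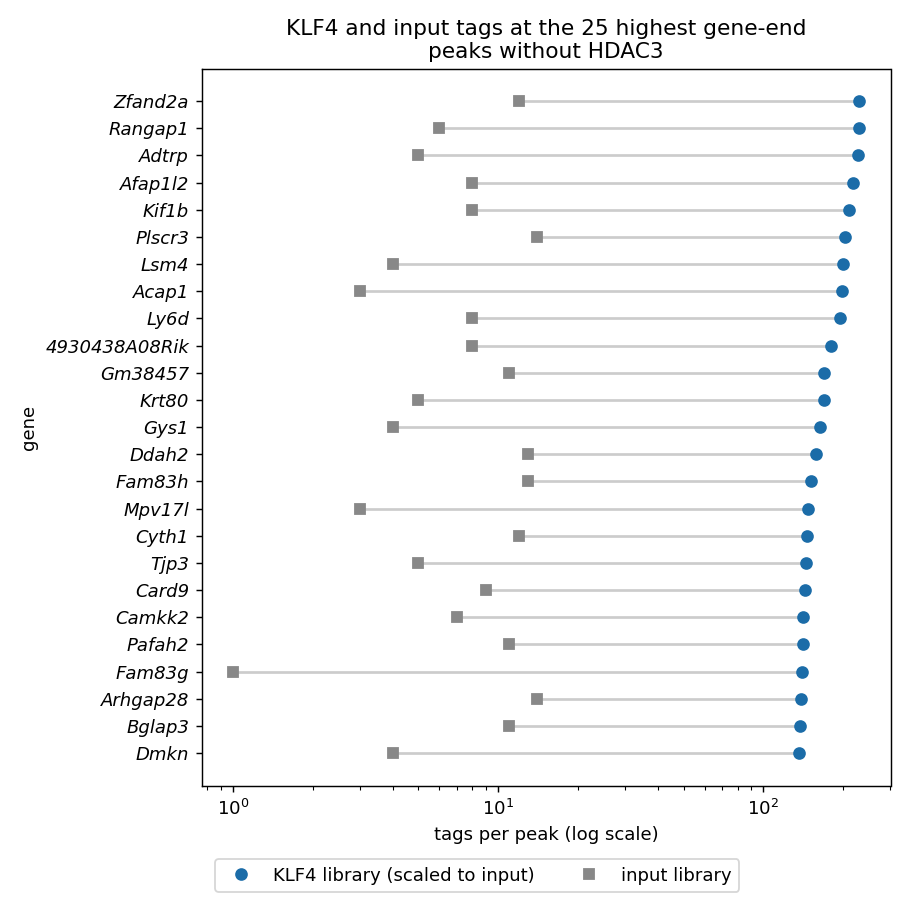
KLF4 tags scaled to the input library (circles) and input tags (squares) at the 25 highest KLF4 gene-end peaks without HDAC3, 1 gene per line, on a log axis; each symbol is 1 library. The KLF4 values lie between 136.6 and 229.8 tags and the input values between 1 and 14.

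Compared with KLF4 gene-end peaks that had HDAC3, the peaks without it were lower. Their median score was 62 (quartiles 42 and 93, highest 446), against 88 (56 and 142, highest 717) with HDAC3. Among KLF4 peaks away from gene ends, the like class without HDAC3 had a median of 54 (34 and 85), below that at gene ends, and all such peaks together had 64. The median fold over input was 6.67 without HDAC3 and 9.05 with it, while the median input was 4 tags in both. Per 10000000 tags, the median peak held 9.93 KLF4 tags without HDAC3 and 14.3 with it. A score of at least 200 was reached by 96 peaks, or 3.21% (2.61 to 3.90), against 13.6% (12.2 to 15.2) with HDAC3. By score, few were near the calling threshold of 19: 3.31% scored within 4 of it, against 0.669%. The margin in fold over input was narrower, with 4-fold required for a call. Its lower quartile was 5.09 without HDAC3 and 5.97 with it, and 37.5% against 56.4% reached 8-fold. These heights come from the same lists as the rule, and no test was made.

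Across the range of heights, the share of gene-end peaks without HDAC3 was lower at each higher decile of KLF4 score. In the lowest decile (scores 19 to 32) it was 78.9% (75.1 to 82.4), in the fifth (60 to 70) 63.8%, and in the highest (176 to 717) 27.9% (24.0 to 32.0; 142 of 509 peaks). The intervals of the lowest and highest deciles are far apart. Neighbouring deciles from the second to the ninth, which run from 70.5% to 45.7%, overlap in their intervals. Rangap1, Zfand2a and the other leading genes thus belong to the minority of high gene-end KLF4 peaks without an HDAC3 call.

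**Figure D2:**
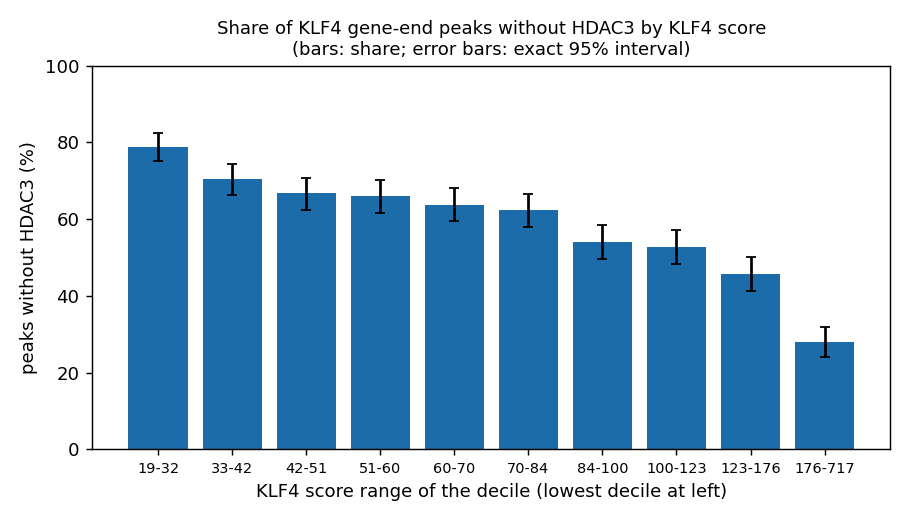
Share of KLF4 gene-end peaks without HDAC3 (%) in each decile of KLF4 score, lowest decile at left; bars are shares of the 508 or 509 peaks per decile and error bars exact 95% intervals. The share goes from 78.9% in the lowest to 27.9% in the highest decile.

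The rule clears HDAC3 from around each peak, so HDAC3 near the same gene end is not a finding, and the surroundings beyond 1 kb are described instead. Among the 3102 genes, 194 (6.25%) also had a KLF4 gene-end peak with HDAC3, against 9.79% of all protein-coding genes. The rule itself limits that overlap, which was not tested. An HDAC3 peak somewhere inside the gene was present in 50.8% (49.0 to 52.6), although the rule removes HDAC3 close to the KLF4 peak, against 45.9% of all protein-coding genes. Median gene length was 18650 bp in the class and 17169 bp over all protein-coding genes. The nearest HDAC3 centre was a median of 9247 bp away (quartiles 4719 and 17531). At 36061 gene ends with neither factor within 1 kb the median was 14047 bp (5735 and 38648). KLF4 peaks away from gene ends without HDAC3 had nearly the same distances as the gene-end peaks, with a median of 9078 bp (4493 and 17865), so these distances are not particular to gene ends. Within 10 kb, 53.2% (51.4 to 55.0) of the KLF4 peaks had an HDAC3 peak, against 39.9% (39.4 to 40.4) of those ends, and within 50 kb 96.2% against 79.2%. The peaks farthest from HDAC3 were at Eif2s3y, an initiation factor subunit, and Ddx3y, an RNA helicase, the 2 members on the Y chromosome, with scores of 20 and 32. They were followed by Gm32856 (527337 bp, score 23), Stard3nl (477624 bp, 34), a cholesterol-binding endosome protein, and Lingo2 (421021 bp, 87), a neuronal membrane protein. Of these 5, Lingo2 was above the median score of the class.

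**Figure D3:**
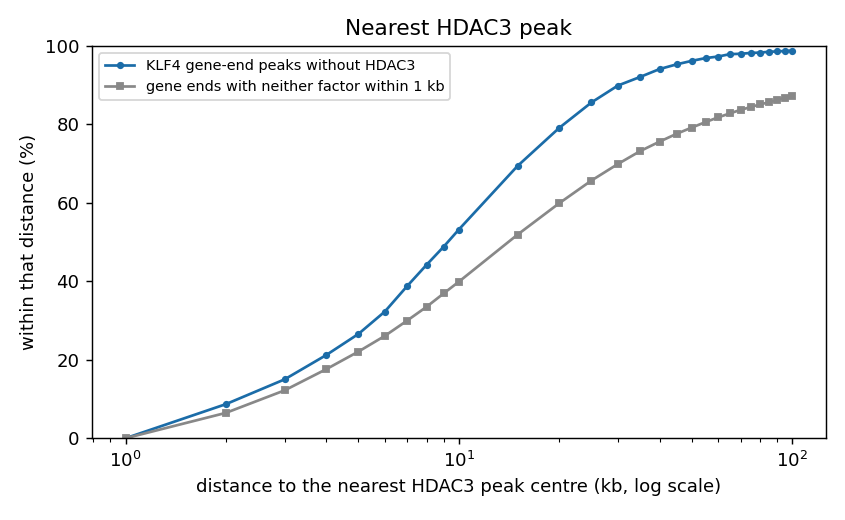
Cumulative share (%) of KLF4 gene-end peaks without HDAC3 (circles) and of gene ends with neither factor within 1 kb (squares) that have an HDAC3 peak centre within the distance on the x axis (kb, log scale). At 10 kb the shares are 53.2% and 39.9%, and at 50 kb 96.2% and 79.2%.

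The 1 kb limits cut through a continuous range. Just past the HDAC3 limit and therefore kept were Ap3s2 (1003 bp), Wdr36 (1007 bp) and Bcl10 (1008 bp), with KLF4 scores of 46, 107 and 63. Just within it and therefore left out were the peaks at Ubb (1000 bp, score 238), Atp8b3 (1000 bp, 97) and the shared end of Ccdc47 and Ddx42 (996 bp, 125). At the gene-end limit, Triobp (1000 bp, 108), Nrbp1 (999 bp, 95) and Ccdc92 (999 bp, 39) were kept, and Ccnl1 (28), Fyco1 (52) and Mnt (125), at 1001 bp each, were not.

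Most of the peaks were at gene starts. Over all 2993 peaks, 1904 (63.6%) lay within 1 kb of a listed start. Peaks not near a listed start were left out where any of their genes lacked a strand, and 2427 remained. Peaks near a listed start were kept either way, which can raise the start share. Of the 2427, the 1904 were 78.5% (76.8 to 80.1), against 84.4% (82.6 to 86.1) of 1680 peaks with HDAC3. When gene-end peaks were split by KLF4 score into 4 groups of like size, the share varied little in the class without HDAC3: from the lowest group to the highest it was 78.0, 77.4, 79.7 and 79.1%. With HDAC3 it was 85.6, 90.5, 85.9 and 79.0%, so in the highest group both classes had nearly the same share. Where the start was the nearest end, 56.5% of 1862 centres were upstream and 43.7% (41.4 to 46.0) were within 250 bp, against 51.0% (48.3 to 53.7) of 1390 peaks with HDAC3. The fullest bin was the 100 bp just upstream of the start, with 12.4% of the peaks. At the other annotated ends no such crowding was seen, and 23.0% of 560 centres lay within 250 bp. The median score was 63 at starts and 60 at other ends; with HDAC3 it was 84 at starts and 104 at other ends.

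**Figure D4:**
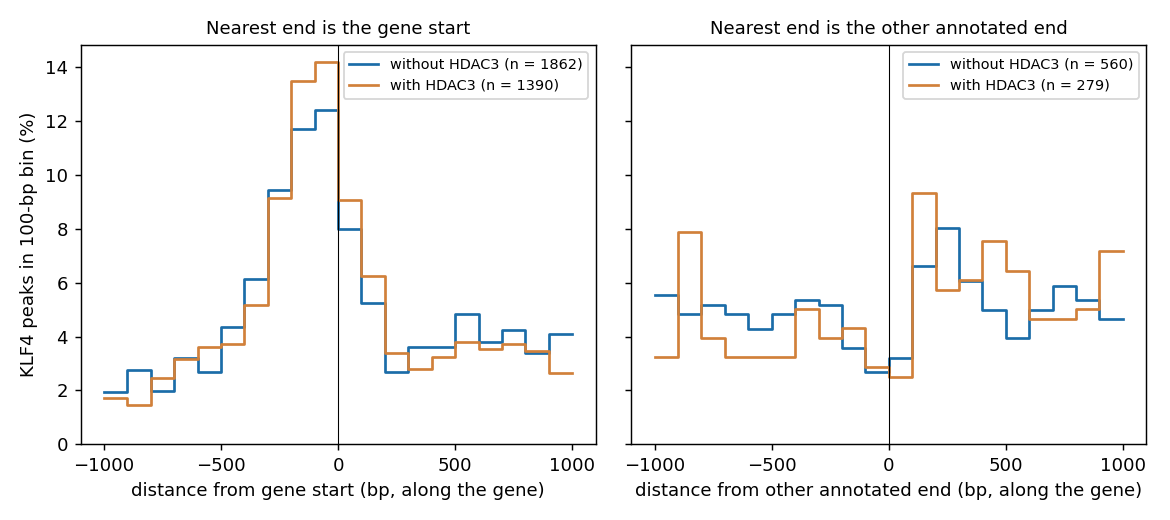
Share of KLF4 peaks (%) in 100-bp bins by distance from the nearest gene end (bp, in the direction of transcription, negative upstream), for starts (left) and other annotated ends (right), without HDAC3 and with HDAC3. Without HDAC3, the bin from -100 to 0 at starts holds 12.4% of 1862 peaks, and other ends show no comparable summit.

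Single peaks per gene were the rule: 2831 genes had 1 such peak, 258 had 2 and 13 had 3. Of the 13 genes tied at 3, the 5 with the highest single scores are given here. Lsm4 had peaks of score 385, 128 and 106, the highest 868 bp outside the gene. Nectin2, a cell adhesion receptor, had 201, 123 and 69, and Glyr1, a nucleosome-binding demethylase cofactor, had 145, 93 and 39. Mink1, a kinase of cell adhesion, had 117, 77 and 63, and Harbi1, a domesticated transposase, had 106, 86 and 41. One peak could also serve neighbouring genes, since 384 peaks (12.8%) lay at ends of 2 or more genes, against 15.6% with HDAC3. Another KLF4 peak within 5 kb was present for 37.8% (36.0 to 39.6), against 46.1% (44.0 to 48.3) with HDAC3. By chromosome, the share of gene-end KLF4 peaks without HDAC3 ranged from 49.0% on chromosome 19 to 67.3% on X, leaving out Y with its 2 peaks. Genes with such a peak ranged from 0.781% on Y and 7.04% on X to 19.4% on chromosome 11.

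Sequence was examined where a peak centre fell in a promoter window of 300 bp, from 250 before to 50 after a start, which held for 649 peaks without and 555 with HDAC3. The windows were set beside all 21238 promoter windows of protein-coding genes. The longer KLF-type matches, GGGTGTGG or GGGCGTGG on either strand, were in 21.4% (18.3 to 24.8) of the windows without HDAC3, 19.3% (16.1 to 22.8) with HDAC3 and 10.2% (9.79 to 10.6) of all windows. The intervals of the classes overlap, and both lie above that of all windows. In the 4 score groups, from lowest to highest, the share without HDAC3 was 15.9, 18.2, 23.0 and 31.9%; with HDAC3 it was 19.5, 20.3, 16.6 and 20.7%. In the highest group the intervals were 23.6 to 41.2 and 15.2 to 27.1, which overlap. The nearest match was a median of 55 bp from the centre in 139 windows without HDAC3 and 73 bp in 107 windows with it. It lay within 25 bp in 25.2% (18.2 to 33.2) and 22.4% (14.9 to 31.5) of these. No expected distance was computed, so the medians do not show crowding of matches at the centre. The shorter CACCC, which lies within GGGTGTGG on the opposite strand, was in 67.6%, 67.0% and 59.5%.

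Of the other letter strings, TGANTCA, the AP-1 type, was in 8.17% (6.18 to 10.5) of windows without HDAC3, 13.2% (10.5 to 16.3) with HDAC3 and 6.99% of all. Sprr1b is among the promoters without HDAC3 that hold it. Split into the 4 score groups, from lowest to highest, the AP-1 share without HDAC3 was 5.29, 7.39, 8.56 and 12.9%. With HDAC3 it was 13.4, 10.6, 8.92 and 18.1%. The share was higher with HDAC3 in each group, nearly equal in the third, and the intervals of the classes overlapped in each. CCGGAAG, the ETS type, was in 22.3, 19.5 and 11.6%, and TGACGTCA, the CRE type, in 4.47, 2.52 and 2.24%. AAGATGGC, the YY1 type, was in 5.70, 4.86 and 3.05%, and GGGGCGGGG, the SP type, in 19.1, 17.7 and 15.3%. CCAAT (37.6, 37.8 and 38.2%), GGAATG of TEAD factors (14.8, 15.3 and 13.6%), AGATAA of GATA factors (8.32, 9.37 and 9.65%) and the palindromic NRF1 element (1.54, 1.26 and 1.33%) had like shares in the classes and in all windows. AACCGGTT, the grainyhead type, was found in 0 of 649 windows without HDAC3, 0.360% with HDAC3 and 0.179% of all. The median window without HDAC3 had 16 CpG pairs (quartiles 9 and 22) and 57% GC, against 15 and 56.7% with HDAC3 and 13 (4 and 24) and 56.3% in all. A match is only the presence of these letters.

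Genes of the skin barrier carried the class as follows, each list read against the 14.2% of all protein-coding genes. Counts with HDAC3 are to be read against their own background of 9.79%. Peaks counted for these lists can lie at either end of a gene. Those named below for Krt10, Notch1, Klk7, Eif3l, Gabarap, Ube2m, Rpl11 and Gadd45a, among others, lay at the other annotated end, not at the start. Of 45 barrier lipid genes, 15 (33.3%; 20 to 49) had a KLF4 gene-end peak without HDAC3 and 13 had one with HDAC3. Aloxe3, a lipoxygenase of the lipid envelope mutated in ichthyosis, had 114.9 scaled KLF4 tags against 8 input tags. Pnpla1, the transacylase of acylceramide synthesis, had 94.1 against 10. Cers5, a ceramide synthase, had 81.0 against 7, and Sqle, an epoxidase of cholesterol synthesis, had 72.4 against 8. Psap, the precursor of saposins for glucosylceramide breakdown, scored 151. The named lipid genes thus belong to sterol, ceramide and acylceramide steps, but the list was only partly covered. Neither kind of KLF4 gene-end peak was found at 21 of the 45 genes, among them Cers3, Elovl1, Elovl4 and Alox12b.

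Of 39 cornified envelope genes, 9 (23.1%; 11.1 to 39.3) had a peak without HDAC3, and 19 (48.7%) had one with HDAC3; 5 had both. Besides Dmkn, the highest were Cdsn, the corneodesmosome adhesion protein, with 108.1 scaled KLF4 tags against 7 input tags, and Sprr1b, a small proline-rich envelope precursor, with 81.4 against 4. Klk7 and Klk6, proteases of desquamation, scored 124 and 115, and Evpl, the envelope plakin envoplakin, also 115. Cdsn, Sprr1b, Klk7 and Evpl also had KLF4 gene-end peaks with HDAC3, scoring 168, 92, 312 and 282. The major envelope proteins Lor, Ivl and Flg had only KLF4 gene-end peaks with HDAC3, scoring 210, 95 and 85. Among the 23 lists, this one had the highest share of genes with HDAC3 at the KLF4 peak.

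In the spinous and Notch list 8 of 30 genes (26.7%; 12.3 to 45.9) had a peak without HDAC3 and 5 had one with it. Krt10 and Krt1, the partner keratins of the spinous layer, had 95 scaled KLF4 tags against 10 input tags and 44.8 against 7. Ovol1, a zinc finger factor that ends proliferation, had 83.2 against 6. Adam10, the protease that cleaves Notch, scored 105, the receptor Notch1 88, and its target Hes1 77, with the Hes1 peak 14 bp outside the gene. Of 35 junction genes, 10 (28.6%; 14.6 to 46.3) had a peak without HDAC3 and 10 with it. After Tjp3, these were led by the adhesion molecule F11r (160), the tight junction plaque protein Cgn (125) and the claudin Cldn7 (103). Of 19 basal layer genes, 2 had a peak without HDAC3 and none with it. Those 2 were Sfn, the 14-3-3 sigma protein (217), and Col17a1, a hemidesmosome collagen (42).

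Lists of regulators were close to or below the share of all genes. Only 1 of 25 KLF and SP factor genes had a peak without HDAC3 (4%; 0.101 to 20.4), Klf16 at a score of 99, against 6 with HDAC3. Of 25 AP-1 and immediate early genes, 2 did (8%; 0.984 to 26), Jun with 62.4 scaled KLF4 tags against 6 input tags and Maff with 56.5 against 5. A peak with HDAC3 was present at 10 genes (40%), Fos among them at 237. Jun is also among these 10: its peak with HDAC3 scored 129, and its peak without lay 993 bp from the gene end and 1073 bp from an HDAC3 centre. Of 45 epidermal transcription factor genes, 4 (8.89%) did, namely Ovol1, the tuft and keratinocyte factor Pou2f3 (129), Casz1 (48) and Ehf (45), against 9 with HDAC3. Of 37 EGF receptor and MAP kinase genes, 3 (8.11%) did, the ligands Ereg (67) and Areg (38) and the receptor Erbb2 (50), against 7. Of 29 HDAC and corepressor genes, 4 (13.8%) did: Sirt6 (178), Hdac10 (105), Hdac2 (87) and Hdac1 (56), against 5. These lists are short, and the intervals of all 5 include 14.2%.

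Lists of general cell functions were also examined. Of 79 cytosolic ribosomal protein genes, 24 (30.4%; 20.5 to 41.8) had a peak without HDAC3 and 20 with it, led by Rpl23a with 121.2 scaled KLF4 tags against 9 input tags and Rpl27 with 114.5 against 20. The 20 input tags at Rpl27 were as many as at any peak of the class. Rpl23 (153), Rpl11 (141) and Rpl12 (136) came next. Of 44 translation factor genes, 14 (31.8%; 18.6 to 47.6) had one, with Eif3l at 249, Eif6 at 230, Eif3k at 211, Pabpc1 at 135 and Eif2b5 at 120, against 13 with HDAC3. Of 46 spliceosome genes, 13 (28.3%; 16.0 to 43.5) had one, led by the splicing factor Srsf7 (160) and the helicase Snrnp200 (137), against 9. Of 74 respiratory chain genes, 17 (23.0%; 14.0 to 34.2) had one, led by the ATP synthase subunit Atp5d (195) and the complex I subunit Ndufs7 (143), against 8 (10.8%) with HDAC3. Of 42 proteasome genes, 8 (19.0%) had one, with the ubiquitin receptor Adrm1 at 214 and the activator subunit Psme2 at 204, against 12.

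Growth control genes included 12 of 43 cell cycle genes (27.9%; 15.3 to 43.7), against 7 with HDAC3. Cdkn1a, the inhibitor p21 that stops the cycle, had 60.6 scaled KLF4 tags against 5 input tags, 48 bp outside the gene start, and Rb1, the retinoblastoma protein, had 54.7 against 9. E2f4 scored 96 and Pcna, the replication clamp, 71. Of 25 p53 target genes, 7 (28.0%; 12.1 to 49.4) had a peak without HDAC3 and 3 with it; besides Cdkn1a, which both lists hold, these included the kinase Plk3 (120) and Gadd45a (108). Of 20 circadian clock genes, 6 (30.0%; 11.9 to 54.3) had one and 3 with HDAC3, led by the repressor Per1 with 90.5 scaled KLF4 tags against 7 input tags. Of 58 replication-dependent histone genes, 7 (12.1%) had one, led by H4c4 (95) and H4c8 (90), against 13 with HDAC3; H1f4 and H2bc6 shared 1 peak (57), and values of these genes are uncertain because they have near-identical copies.

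Membrane traffic and protein turnover completed the lists. Of 47 vesicle trafficking genes, 13 (27.7%; 15.6 to 42.6) had a peak without HDAC3, led by the endosome GTPase Rab5a with 113.5 scaled KLF4 tags against 7 input tags, and 11 had one with HDAC3. Of 42 autophagy and lysosome genes, 10 (23.8%) had one, led by Gabarap (246), which joins the autophagosome membrane, and Map1lc3a (113), against 9. Of 42 ubiquitin conjugation genes, 9 (21.4%) had one, led by Ube2m (164) and Uba3 (126), which both attach NEDD8, against 5. Of 35 marker genes of cell types other than keratinocytes, 5 (14.3%) had one and 2 had one with HDAC3: Col1a1 of fibroblasts (236), Tubb3 of neurons (109), Myod1 of muscle (106), Itgam of myeloid cells (74) and Dct of melanocytes (69). That share was at the background of 14.2%, and ChIP peaks do not measure whether a gene is expressed. The lower bounds of the barrier lipid, ribosomal, translation, spliceosome, junction, cell cycle and vesicle lists were above 14.2%. In the same order, their shares with HDAC3 were 28.9, 25.3, 29.5, 19.6, 28.6, 16.3 and 23.4%, against 9.79% of all genes. Shares above background were thus not particular to peaks without HDAC3. The lower bounds nearest to 14.2% were those of the junction (14.6), cell cycle (15.3) and vesicle (15.6) lists. The 14.2% also counts families that rarely had such a peak, such as olfactory receptor genes (4 of 1110). No background without these families was computed, so lists with bounds this near may not stand above one. Lists were not tested, and genes sharing a peak are not independent.

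**Figure D5:**
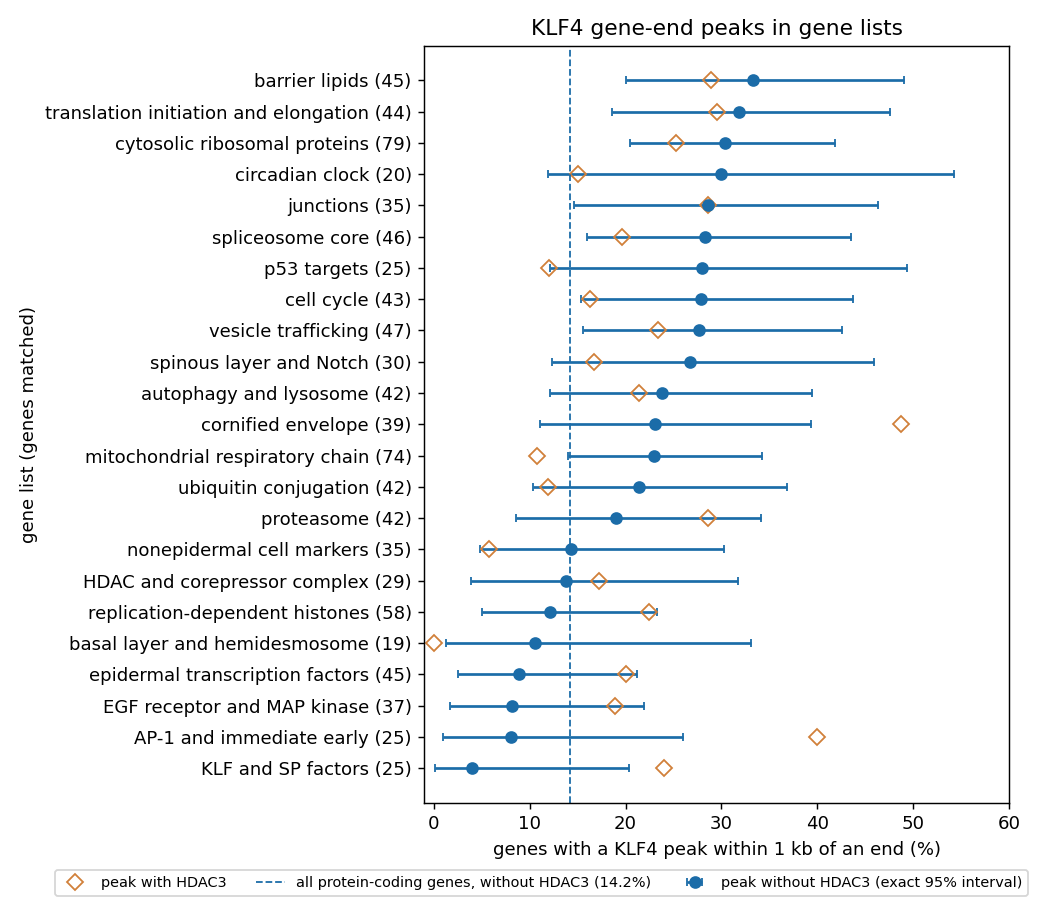
Share of genes (%) in each of 23 lists with a KLF4 gene-end peak without HDAC3 (filled circles, exact 95% intervals) and with HDAC3 (open diamonds); the dashed line, for the circles, is the 14.2% of all protein-coding genes without HDAC3, and the share for the diamonds over all genes is 9.79%. Barrier lipid genes reach 33.3% without HDAC3, while cornified envelope genes reach 48.7% with HDAC3 and 23.1% without.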

How the data were processed

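ChIP-seq peaks of KLF4 and HDAC3 from E18.5 mouse epidermis were analysed, 1 library per antibody plus input. The submitters' processing notes name STAR, HOMER and bcl2fastq and the build GRCm38.p5; for their versions, the sources used here give none. The authors called peaks with findPeaks in factor mode, per the file headers, for each library against the same input, with a width of 185 bp, a spacing of at least 370 bp, 4-fold enrichment over input and over the surrounding 10 kb, a p-value of 1e-04 over input and a false discovery rate of 0.001. The deposited tag signal was scaled by the authors to 10000000 tags or to the input library, and input tags of 0 are written as 0.5. The score is the authors' tag score, used to rank peaks within the KLF4 list. The fold over input is a ratio from the authors' caller. The focus ratio, a fraction in the deposited lists, and the p-value per peak from the authors' caller were read and not tested.

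Centres were placed on RefSeq genes of GRCm38.p6 (49943 genes, 21887 protein-coding); 47140 KLF4 and 57920 HDAC3 peaks on chromosomes were used. Strand came from the RefSeq promoter table, which lists 17492 of the protein-coding genes and whose starts can differ from the ends in the gene table; distances are from the gene table, except in promoter windows; no genome was used, so peaks outside promoter windows have no sequence here. The 13 motifs were searched on both strands. The members and the 23 gene lists were chosen with earlier results of these data known. Named genes are the 25 highest by score, up to 5 per list, the 5 farthest from HDAC3, 3 on either side of each limit, 5 of the genes tied for the most peaks (by their highest score) and the 5 with the highest fold; a few further list genes, and Lor, Ivl, Flg and Fos, were named after their values were seen, and the promoters to print were picked from the named genes in the same way. The split into 4 score groups was also added after seeing the data. Python 3.11.15, pandas 2.3.3 and scipy 1.17.1 were used, and the distance and overlap code was tested on simulated data. Other windows, distances and fold limits were tried. No difference was tested, because each antibody had 1 library. Some genes that the naming rule would give are not reported here.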

Additional observations from a re-analysis of the deposited data

How the results depend on the processing

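The number of peaks depended on the definitions more than their height did. The 2993 peaks became 1905, 4590 and 7836 with gene-end windows of 500 bp, 2 kb and 5 kb, 4490 with the ends of all annotated genes, 1904 with starts alone and 1121 with KLF4 peaks at least 8-fold over input. The 3102 genes became 2024 at 500 bp, 7390 at 5 kb and 1192 at 8-fold. The share of gene-end peaks without HDAC3, 58.9%, was 60.7% at the 5 kb window, 67.4% when HDAC3 had to overlap, 43.2% when HDAC3 within 5 kb counted, 48.7% for KLF4 peaks at least 8-fold over input and 84.9% when HDAC3 peaks had to be at least 8-fold. The median score of 62 was 60 with HDAC3 within 5 kb and 76 for KLF4 peaks at 8-fold. The share of windows with a KLF-type match was 10.3% (7.67 to 13.5) in 100 bp around the peak centre, for the 456 windows where these fit. With HDAC3 it was 8.71% (6.14 to 11.9) of 402. All promoters had 4.25% in the middle 100 bp of their windows, which is a different placement. The 100 bp are shorter by construction. With a median input of 4 tags, the fold of a single peak is imprecise. No paired analysis was possible because each antibody had 1 library and no replicate numbers.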

Other observations

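Gene families, chosen after their values were seen, differed in how often they had a KLF4 gene-end peak without HDAC3. Olfactory receptor genes had one in 4 of 1110 cases (0.360%; 0.0983 to 0.920) and vomeronasal receptor genes in 4 of 355 (1.13%), and neither family had a KLF4 gene-end peak with HDAC3. Predicted genes named Gm had one in 51 of 1329 (3.84%; 2.87 to 5.01). Zinc finger genes named Zfp had one in 57 of 397 (14.4%; 11.1 to 18.2), near the 14.2% of all protein-coding genes, and 31 had one with HDAC3. Solute carrier genes had one in 66 of 389 (17.0%; 13.4 to 21.1), and transmembrane protein genes named Tmem in 45 of 238 (18.9%; 14.1 to 24.5). Mitochondrial ribosomal protein genes had one in 14 of 78 (17.9%; 10.2 to 28.3), against the 30.4% of cytosolic ribosomal protein genes given above.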
